A study of Homo sapiens with 15 samples.

Results

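Acute phase proteins are secreted proteins whose blood levels change during inflammation. Transcripts of 9 of them were looked for in ASC52 cells, a human mesenchymal stem cell line of adipose origin immortalised with telomerase: SAA1, SAA2, SAA4, HP, LBP, ORM1, ORM2, CP and PTX3. The genes were chosen by name, as a family built around SAA1, which had been picked because its values were higher after each of the 2 culture steps. Of the 9 genes, 7 were matched by symbol to a probe set, out of 17687 genes in all. SAA2 and SAA4 were not analysed here. Since the levels of SAA1 decided the choice, they are given below as a description with no test, and the other 6 genes carry the test of the fit over all genes.

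The DED cells were differentiated to fat cells for 14 days, starting 3 days after seeding, and then given for 7 days the conditioned medium of MDA-MB-231 cells, which are a human line of breast carcinoma. The MA cells were differentiated in the same way and kept for 7 days in plain RPMI with 10% serum, the base of the conditioned medium. The MSC cells were undifferentiated cells of the same line. Each group had 5 single-colour arrays. All groups share 1 immortalised line, and the labels do not state whether a group's arrays come from separate cultures. The p-values therefore cover the spread among these arrays alone, and that spread may be technical. The labels used here do not give the medium or the harvest time of the MSC cells.

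In the body most of these proteins are made by hepatocytes. Interleukin 6, acting through its receptor chains and STAT3, and interleukin 1, acting through NF-kappaB, are the best known inducers, and glucocorticoids add to their effect. Fat tissue is a known extrahepatic source, serum amyloid A in particular being made by human adipocytes. The family covers several jobs: SAA1 is a lipid-carrying protein, HP (haptoglobin) captures free hemoglobin, LBP hands bacterial lipopolysaccharide to its receptor complex, PTX3 is a soluble pattern recognition protein that also stabilises hyaluronan matrix, ORM1 and ORM2 are orosomucoids that bind drugs and lipids, and CP (ceruloplasmin) is a copper-carrying ferroxidase.

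Promoter sequence was held for PTX3 and ORM1 among the measured genes, and it is shown because PTX3 had high signals in every group while ORM1 stayed in the range of the negative controls. The RefSeq windows (GRCh38.p14) hold the 250 bases before each gene's start, at chr3:157436600-157436849 (plus strand) for PTX3 and chr9:114322848-114323097 (plus strand) for ORM1. Capitals mark matches to 4 motifs read on both strands: TTNNGNAAT for C/EBP, GGNNTTNCC for NF-kappaB, TTCNNNGAA for STAT and TATAAA for the TATA box.
PTX3: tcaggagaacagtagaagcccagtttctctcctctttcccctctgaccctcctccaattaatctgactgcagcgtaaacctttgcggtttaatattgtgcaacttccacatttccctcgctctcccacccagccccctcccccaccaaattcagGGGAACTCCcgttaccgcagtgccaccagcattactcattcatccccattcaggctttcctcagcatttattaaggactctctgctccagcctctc
ORM1: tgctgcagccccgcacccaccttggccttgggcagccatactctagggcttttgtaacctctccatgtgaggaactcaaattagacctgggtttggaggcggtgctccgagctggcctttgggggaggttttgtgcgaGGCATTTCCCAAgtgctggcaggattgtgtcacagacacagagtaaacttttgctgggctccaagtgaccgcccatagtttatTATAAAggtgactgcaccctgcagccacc

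The PTX3 window held 1 match, to the NF-kappaB motif on the minus strand, 96 to 88 bases before the start. The ORM1 window held an NF-kappaB match (112 to 104 bases before the start) that overlaps a C/EBP match on the minus strand (109 to 101 bases), and a TATA box 29 to 24 bases before the start. Among all 35116 windows of this length 14.98% held the NF-kappaB motif, 9.85% the C/EBP motif, 6.57% the STAT motif and 10.7% the TATA box. These matches describe the letters of the windows and nothing measured in these cells.

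Signals are log2 intensities, so a difference of 1 is a doubling. Background was read from 612 negative control probe sets, whose median was 4.80 and of whose values 95% lay under 8.31. Below 8.31 the size of a difference depends on background, so no fold is given there. The lowest correlation between 2 arrays of a group over all genes was 0.982 in DED, 0.992 in MA and 0.992 in MSC. DED arrays 1 and 3 lay apart from each other. For genes of the family built around SAA1, the results that rest on these arrays are given with and without them. Differences of genes outside the family, SERPING1 and IL1R1 among them, are given with all arrays only. Of the marker lists, all 8 adipocyte markers were higher in MA than in MSC and 7 of the 8 were lower in DED than in MA. Their mean ran from 9.96 to 11.25 in DED, from 12.33 to 12.48 in MA and from 5.56 to 5.76 in MSC. The 8 mesenchymal stem cell markers went both ways, with 3 higher and 2 lower in DED against MA, 2 higher and 4 lower in MA against MSC, and 2 higher and 5 lower in DED against MSC. Of all genes 12.9% were higher and 13.0% lower in DED against MA. The shares were 15.4% and 17.6% in MA against MSC, and 17.1% and 16.4% in DED against MSC. PI16 averaged 5.08 in DED, 5.03 in MA and 9.05 in MSC, and DPP4 6.70 in DED, 6.92 in MA and 9.35 in MSC, so neither was back at its MSC level in DED. THY1 averaged 12.80 in DED, 12.04 in MA and 13.59 in MSC, and ENG 12.36 in DED, 11.62 in MA and 12.80 in MSC. Both rose in DED against MA (limma adjusted p = 0.000308 and 3.39e-05) and lay between MA and MSC. VCAM1 rose in DED against MA too, while NT5E and CD34 fell. NT5E, THY1, ENG and PDGFRA had means above 8.31 in all 3 groups, and VCAM1 in DED. Because RNA of whole cultures was measured, fewer cells of a type and less RNA per cell cannot be told apart.

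SAA1, PTX3 and HP had their highest levels in DED, lower ones in MA and the lowest in MSC. LBP was higher in both DED and MA than in MSC, and ORM1, ORM2 and CP stayed near the negative control median in every group. In DED against MA, 2 of the 6 tested genes (PTX3 and HP) rose and 0 fell. Over all genes 12.9% rose and 13.0% fell in that comparison. In MA against MSC 5 of the 6 rose and 0 fell, where 15.4% of all genes rose and 17.6% fell, and ORM2 missed the threshold. In DED against MSC 4 of the 6 rose and 0 fell, beside 17.1% and 16.4% of all genes. Nothing is read from these shares, because the family was assembled around a gene that was higher in the same steps. DED against MA and MA against MSC share the MA arrays, and DED against MSC shares arrays with both. The median log2 difference of the 6 genes was 0.31 in DED against MA, 1.21 in MA against MSC and 1.63 in DED against MSC, while that of all genes lay at 0.018, -0.002 and 0.028.

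**Figure D1:**
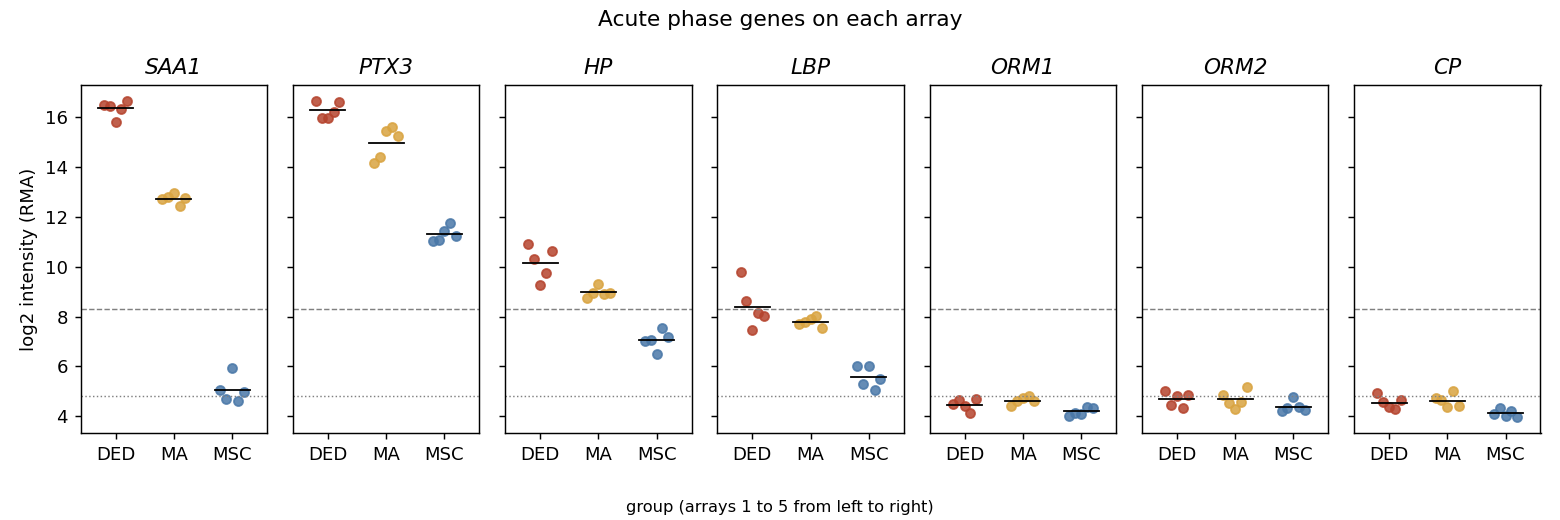
Log2 intensity of the 7 measured acute phase genes on each of the 15 arrays, with the DED, MA and MSC groups side by side and array numbers running from left to right within a group. Short bars are group means, the dashed line is at 8.31, under which 95% of the negative control values lay, and the dotted line is their median (4.80). SAA1 and PTX3 separate the 3 groups, and ORM1, ORM2 and CP lie around the dotted line.

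SAA1, the gene the family was chosen around, was at 16.51, 16.47, 15.80, 16.31 and 16.66 in DED arrays 1 to 5. It was at 12.72, 12.78, 12.95, 12.45 and 12.76 in MA, and at 5.06, 4.67, 5.95, 4.61 and 4.97 in MSC. The 3 groups did not overlap, and the lowest DED array lay 2.85 above the highest MA array. All DED and MA arrays were above 8.31, while the MSC arrays lay around their median, with 3 of 5 above it. The mean was 16.35 ± 0.33 in DED, 12.73 ± 0.18 in MA and 5.05 ± 0.54 in MSC (SD, n = 5 each). DED exceeded MA by 3.62, a 12.3-fold difference. MA exceeded MSC by 7.68 and DED exceeded MSC by 11.30, but the size of both depends on the background, since SAA1 was not above 8.31 on any MSC array. SAA2 is the neighbouring gene in the annotation and nearly identical in sequence, and whether the SAA1 probe set also reads SAA2 transcripts was not tested.

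PTX3, the long pentraxin, was the member with clear signals in all groups. It was at 16.66, 15.98, 15.95, 16.19 and 16.60 in DED, at 14.18, 14.41, 15.43, 15.59 and 15.23 in MA, and at 11.05, 11.06, 11.44, 11.77 and 11.23 in MSC. The groups did not overlap, but within MA arrays 1 and 2 were lower than the other 3, and the gap between the lowest DED and the highest MA array was 0.36. Every array lay above 8.31, so these differences can be given as folds. PTX3 rose 2.48-fold in DED against MA (log2 difference 1.31, SE 0.24, limma adjusted p = 0.000304). It rose 12.6-fold in MA against MSC (3.66, SE 0.24, limma adjusted p = 1.77e-10), and 31.3-fold in DED against MSC (4.97, SE 0.24, limma adjusted p = 1.12e-12).

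HP, which encodes haptoglobin, was at 10.92, 10.29, 9.25, 9.73 and 10.64 in DED, at 8.74, 8.95, 9.32, 8.89 and 8.93 in MA, and at 7.00, 7.06, 6.50, 7.52 and 7.16 in MSC. DED array 3 fell just under the highest MA array, array 3, so that DED and MA overlapped, while MSC stood below both. The spread was widest in DED, with an SD of 0.68 against 0.21 in MA and 0.37 in MSC (n = 5 each). HP rose by 1.20 in DED against MA (SE 0.25, limma adjusted p = 0.000903), a 2.30-fold difference of means. It rose by 1.92 in MA against MSC (SE 0.25, limma adjusted p = 2.77e-06) and by 3.12 in DED against MSC (SE 0.25, limma adjusted p = 2.41e-09), both against an MSC level in the range of the negative controls.

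HPR, the haptoglobin-related gene beside HP on chromosome 16, is a close copy whose transcript could share probe targets with HP. HPR averaged 7.07 ± 0.39 in DED, 6.32 ± 0.10 in MA and 5.37 ± 0.29 in MSC (SD, n = 5 each). All 15 values lay under 8.31, and the 3 groups did not overlap. HPR rose by 0.75 in DED against MA (SE 0.16, limma adjusted p = 0.00162) and by 0.95 in MA against MSC (SE 0.16, limma adjusted p = 0.000101). How far the HP and HPR probe sets read each other's transcript was not tested.

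LBP, the lipopolysaccharide-binding protein, was at 9.79, 8.61, 7.45, 8.13 and 8.01 in DED, at 7.72, 7.79, 7.91, 8.03 and 7.54 in MA, and between 5.05 and 6.01 (median 5.50) in MSC. DED and MA overlapped, MSC lay below both, and DED arrays 1 and 2 were the only arrays above 8.31. LBP rose by 2.22 in MA against MSC (SE 0.30, limma adjusted p = 5.31e-06) and by 2.82 in DED against MSC (SE 0.30, limma adjusted p = 1.90e-07). In DED against MA the difference of 0.60 (SE 0.30) did not pass the test (limma adjusted p = 0.162). That value turned on 2 arrays: it was 0.84 without DED array 3 (limma adjusted p = 0.0338), 0.25 without DED array 1 (limma adjusted p = 0.452) and 0.45 without both (limma adjusted p = 0.133).

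ORM1 and ORM2, the orosomucoid pair that lies side by side on chromosome 9, gave signals of the size of the negative controls. ORM1 was at 4.49, 4.64, 4.40, 4.11 and 4.69 in DED, at 4.40, 4.61, 4.72, 4.80 and 4.59 in MA, and at 3.99, 4.14, 4.10, 4.38 and 4.34 in MSC. It rose by 0.43 in MA against MSC (SE 0.12, limma adjusted p = 0.00990) without any array exceeding the negative control median. ORM2 ran from 4.33 to 5.02 in DED, from 4.29 to 5.16 in MA and from 4.20 to 4.76 in MSC, and its limma adjusted p was 0.973 in DED against MA, 0.202 in MA against MSC and 0.180 in DED against MSC. ORM1 differed by -0.16 in DED against MA (SE 0.12, limma adjusted p = 0.410) and by 0.28 in DED against MSC (SE 0.12, limma adjusted p = 0.0999). Without DED array 4 the ORM1 difference in DED against MSC was 0.37 and passed (limma adjusted p = 0.0272). Since the 2 genes are near copies, signal could be shared between their probe sets.

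CP, ceruloplasmin, was at 4.92, 4.55, 4.35, 4.28 and 4.64 in DED, at 4.73, 4.63, 4.35, 5.03 and 4.40 in MA, and at 4.09, 4.32, 4.02, 4.21 and 3.95 in MSC. Only DED array 1 and MA array 4 exceeded the negative control median. CP rose by 0.51 in MA against MSC (SE 0.14, limma adjusted p = 0.00834) and by 0.43 in DED against MSC (SE 0.14, limma adjusted p = 0.0245), while DED and MA overlapped broadly (-0.08, SE 0.14, limma adjusted p = 0.752). The DED against MSC call was lost without MSC array 3 or 5 or DED array 1 or 5 (limma adjusted p = 0.0532, 0.0632, 0.0744 and 0.0540).

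**Figure D2:**
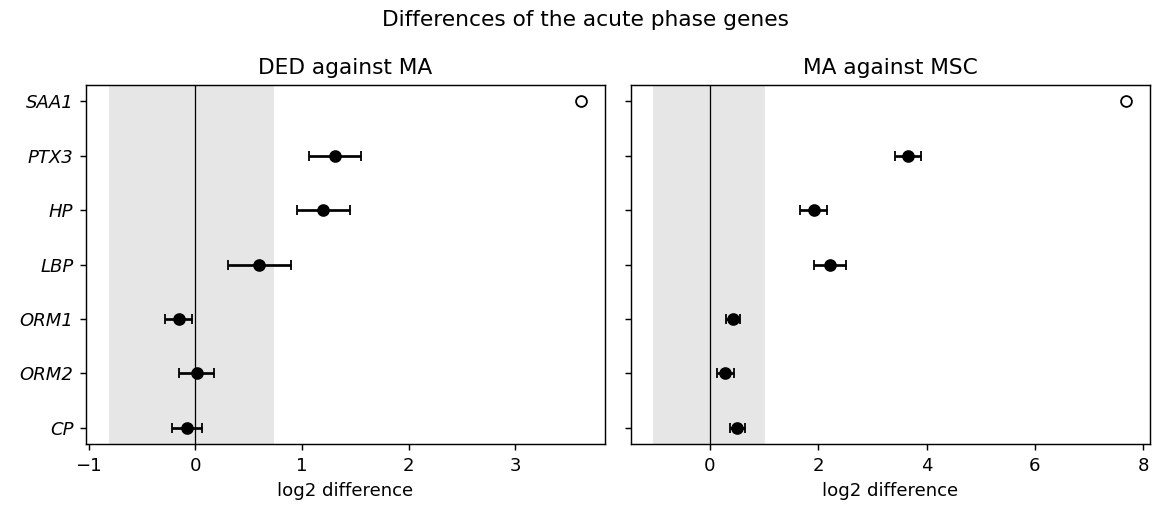
Log2 differences of the 7 genes in DED against MA and in MA against MSC, with bars for the SE of the limma fit (n = 5 arrays per group) and a grey band from the 5th to the 95th percentile of all 17687 genes. SAA1 is an open circle without an SE because its values chose the family. PTX3 and HP lie to the right of the band in both panels, LBP only in MA against MSC, and ORM1, ORM2 and CP lie inside it in both.

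Genes of the signalling pathways known to induce these proteins, with the inhibitors SOCS3 and NFKBIA included, were examined as a list of 27. Of these 24 were measured. In DED against MA 8 of the 24 rose and 3 fell, with a median of 0.12, where 12.9% of all genes rose and 13.0% fell. In MA against MSC 10 rose and 4 fell (median 0.17), beside 15.4% and 17.6% of all genes. In DED against MSC 13 rose and 2 fell (median 0.48), beside 17.1% and 16.4%.

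The cytokine IL6 was at 7.49, 7.93, 7.46, 7.60 and 7.76 in DED, at 4.74, 4.72, 4.98, 5.23 and 4.78 in MA, and at 4.74, 5.35, 5.28, 5.42 and 5.61 in MSC. DED stood clear of both other groups, which overlapped, and all values lay under 8.31. The IL6 difference was 2.76 in DED against MA (SE 0.15, limma adjusted p = 4.62e-11) and -0.39 in MA against MSC (SE 0.15, limma adjusted p = 0.0545).

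IL6ST, the shared signal-transducing chain, ran from 14.89 to 15.13 in DED, from 14.60 to 14.82 in MA and from 13.30 to 13.70 in MSC. It rose by 1.13 in MA against MSC (SE 0.10, limma adjusted p = 3.72e-08) and differed by 0.27 in DED against MA (limma adjusted p = 0.0634). IL6R, the ligand-binding chain, fell by 0.74 in DED against MA and rose by 1.76 in MA against MSC, with all group means under 8.31. OSMR, the receptor chain for oncostatin M, was at 11.72 to 12.08 in DED, 10.49 to 10.69 in MA and 9.71 to 10.45 in MSC, and rose by 1.32 in DED against MA (SE 0.13, limma adjusted p = 1.77e-07). LIFR, the chain for leukemia inhibitory factor, went the other way, at 8.83 ± 0.25 in DED, 11.08 ± 0.20 in MA and 7.99 ± 0.21 in MSC (SD, n = 5 each). It fell by 2.25 in DED against MA and rose by 3.09 in MA against MSC.

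STAT3, the transcription factor downstream of these receptors, was at 14.37, 14.68, 13.94, 14.25 and 14.24 in DED, at 13.17, 13.06, 13.17, 13.43 and 13.27 in MA, and at 12.64, 12.49, 12.32, 12.54 and 12.66 in MSC. Its 3 groups did not overlap, with DED highest and MSC lowest. STAT3 rose by 1.08 in DED against MA (SE 0.13, limma adjusted p = 1.61e-06) and by 0.69 in MA against MSC (SE 0.13, limma adjusted p = 0.000197). SOCS3, a feedback inhibitor that STAT3 is known to induce, was near the negative control median in all groups (4.88 ± 0.24 in DED, 4.88 ± 0.18 in MA and 4.78 ± 0.10 in MSC; SD, n = 5 each). Its limma adjusted p was 0.994 in DED against MA and 0.600 in MA against MSC.

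On the interleukin 1 and NF-kappaB side, IL1R1, the signalling receptor, was at 13.58, 13.28, 11.86, 12.83 and 12.94 in DED, at 11.91, 12.06, 12.15, 11.96 and 12.03 in MA, and at 9.27, 9.72, 8.95, 9.44 and 9.40 in MSC. MSC lay well below the other groups, and DED array 3 was lower than every MA array, so that DED and MA overlapped. IL1R1 rose by 0.88 in DED against MA (SE 0.22, limma adjusted p = 0.00546) and by 2.67 in MA against MSC (SE 0.22, limma adjusted p = 6.64e-09). IL1RAP, its partner chain, rose by 0.90 in DED against MA and fell by 1.25 in MA against MSC, with the MA mean (7.82) under 8.31. NFKBIZ, a nuclear cofactor of NF-kappaB, averaged 13.16 ± 0.33 in DED, 11.30 ± 0.21 in MA and 11.32 ± 0.07 in MSC (SD, n = 5 each), and rose by 1.86 in DED against MA (SE 0.14, limma adjusted p = 3.78e-09). NFKBIA, the inhibitor of NF-kappaB that is itself one of its targets, was at 9.05 ± 0.18 in DED and 8.99 ± 0.09 in MA against 7.60 ± 0.27 in MSC, and rose by 1.39 in MA against MSC (limma adjusted p = 3.12e-08). The C/EBP factors that bind acute phase promoters gave low signals: CEBPB averaged 6.18 in DED, 6.48 in MA and 6.32 in MSC, and CEBPD 5.01 in DED, 4.65 in MA and 4.37 in MSC. CEBPD rose by 0.36 in DED against MA (limma adjusted p = 0.0268). NR3C1, the glucocorticoid receptor, fell by 0.79 in MA against MSC (limma adjusted p = 4.74e-05).

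**Figure D3:**
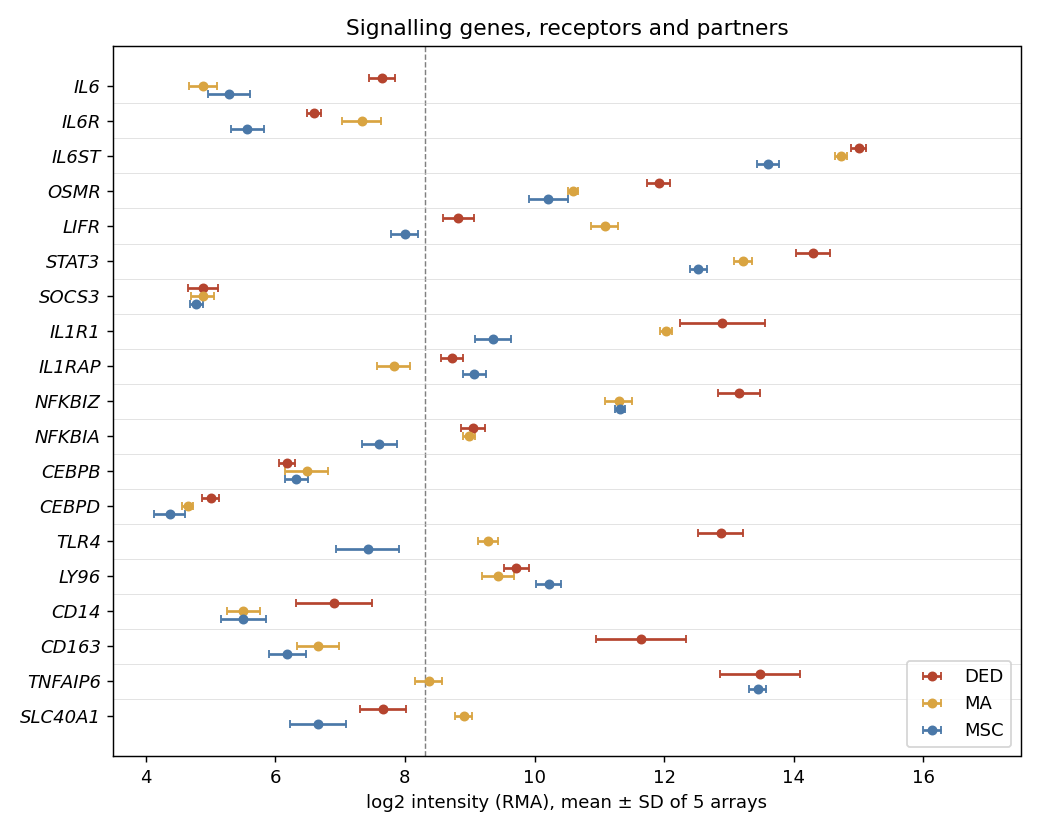
Mean log2 intensity with SD (n = 5 arrays) of signalling genes, receptors and partners of the acute phase proteins in DED, MA and MSC, with a dashed line at 8.31 as in the plot of values by array. IL6, OSMR, STAT3, NFKBIZ, TLR4, CD163 and TNFAIP6 lie to the right in DED relative to MA, and LIFR, IL6R and SLC40A1 to the left.

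Genes for the receptors and binding partners of the members were also listed (19, of which 18 were measured). In DED against MA 8 of the 18 rose and 2 fell (median 0.31), where 12.9% of all genes rose and 13.0% fell. In MA against MSC 3 rose and 4 fell (median 0.003), near the 15.4% and 17.6% of all genes. In DED against MSC 7 rose and 2 fell (median 0.11), beside 17.1% and 16.4%.

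The haptoglobin partner CD163, a receptor that takes up haptoglobin bound to hemoglobin, was at 10.89, 11.78, 10.98, 12.09 and 12.47 in DED, at 7.10, 6.38, 6.59, 6.87 and 6.34 in MA, and at 5.99, 6.15, 6.69, 6.08 and 6.02 in MSC. DED lay far above the other groups, whose values were all under 8.31 and overlapped. CD163 rose by 4.99 in DED against MA (SE 0.25, limma adjusted p = 1.59e-11). It is best known from macrophages, and of 8 macrophage markers 1 rose in DED against MA (CD14) and 1 fell, CD68, by 1.18 (SE 0.16, limma adjusted p = 1.02e-05). These counts are near the 12.9% and 13.0% of all genes that rose and fell in that comparison. The macrophage list mean ran from 6.26 to 6.44 in DED, from 6.22 to 6.42 in MA and from 6.21 to 6.34 in MSC.

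The receptor complex to which LBP delivers lipopolysaccharide showed rises in 2 of its 3 chains in DED against MA. TLR4, the signalling receptor, was at 13.24, 13.12, 12.36, 12.92 and 12.71 in DED, at 9.26, 9.12, 9.37, 9.49 and 9.14 in MA, and at 7.26, 6.95, 7.04, 8.03 and 7.85 in MSC. Its groups did not overlap. TLR4 rose 12.1-fold in DED against MA (log2 difference 3.59, SE 0.20, limma adjusted p = 4.62e-11). CD14, which receives lipopolysaccharide from LBP, rose by 1.40 in DED against MA (6.91 ± 0.58 in DED, 5.51 ± 0.26 in MA; SD, n = 5 each; limma adjusted p = 7.56e-05), with every value under 8.31. LY96, the coreceptor known as MD-2, averaged 9.72 in DED, 9.44 in MA and 10.22 in MSC, and fell by 0.78 in MA against MSC (limma adjusted p = 9.68e-05).

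TNFAIP6, which works with PTX3 in the hyaluronan matrix, was at 12.52, 13.23, 13.93, 13.69 and 14.02 in DED, at 8.22, 8.11, 8.61, 8.33 and 8.55 in MA, and at 13.25, 13.51, 13.50, 13.59 and 13.36 in MSC. MA lay below both other groups, which overlapped, and 3 of the 5 MA arrays were above 8.31. TNFAIP6 rose by 5.11 in DED against MA (SE 0.21, limma adjusted p = 1.10e-12) and fell by 5.08 in MA against MSC (SE 0.21, limma adjusted p = 1.45e-13). With MA so near 8.31, the size of both differences can depend on the background. Of the receptors described for SAA1, FPR2 was at 5.64 ± 0.24 in DED, 5.24 ± 0.14 in MA and 5.55 ± 0.18 in MSC (SD, n = 5 each), and TLR2 lay below the negative control median in every group. FPR2 rose by 0.41 in DED against MA (SE 0.13, limma adjusted p = 0.0218), with all group means under 8.31. CD36, a scavenger receptor that binds SAA1 and takes up fatty acids, averaged 7.66 ± 0.44 in DED, 11.34 ± 0.15 in MA and 5.87 ± 0.56 in MSC (SD, n = 5 each), and fell by 3.69 in DED against MA (SE 0.22, limma adjusted p = 1.73e-10). SLC40A1, ferroportin, the iron exporter that works with ceruloplasmin, fell by 1.25 in DED against MA and rose by 2.24 in MA against MSC (limma adjusted p = 2.98e-05 and 5.45e-09). Its DED and MSC means lay under 8.31.

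Other proteins that rise in the acute phase were measured through 22 of 26 listed genes. Of the 22, 1 rose and 1 fell in DED against MA (median 0.09), where 12.9% of all genes rose and 13.0% fell. In MA against MSC 5 rose and 2 fell (median 0.10), beside 15.4% and 17.6% of all genes, and in DED against MSC 9 rose and 1 fell (median 0.20), beside 17.1% and 16.4%.

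In DED against MA the rise was that of C4A, a complement component, by 0.72 (SE 0.14, limma adjusted p = 0.000702), and the fall that of SERPING1, the C1 inhibitor, by 1.04 (SE 0.29, limma adjusted p = 0.0112), with DED array 3 at 11.75 and the other DED arrays at 13.36 or above. A2M, a protease inhibitor that is a major acute phase protein in the rat, averaged 12.23 ± 0.28 in DED, 11.87 ± 0.19 in MA and 4.58 ± 0.49 in MSC (SD, n = 5 each), and rose by 7.29 in MA against MSC (SE 0.19, limma adjusted p = 2.73e-16). C3, the central complement component, averaged 16.18 ± 0.23 in DED, 16.35 ± 0.08 in MA and 11.62 ± 1.00 in MSC (SD, n = 5 each). C3 rose by 4.73 in MA against MSC (limma adjusted p = 1.78e-10) and differed by -0.17 in DED against MA (limma adjusted p = 0.751). A2M differed by 0.36 in DED against MA (limma adjusted p = 0.190). CFB, complement factor B, fell by 1.39 in MA against MSC (SE 0.25, limma adjusted p = 0.000167), and C4A fell there by 0.89.

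Of the classical liver products CRP, FGA, FGG and SERPINA1 gave background signals. CRP, C-reactive protein, averaged 4.35 ± 0.35 in DED, 4.08 ± 0.16 in MA and 3.76 ± 0.14 in MSC (SD, n = 5 each). It rose by 0.594 in DED against MSC (SE 0.145, limma adjusted p = 0.00285), without any array exceeding the negative control median. The fibrinogen genes FGA and FGG and the antitrypsin gene SERPINA1 had means under the negative control median in all groups. The third fibrinogen gene, FGB, averaged 5.73 in DED, 5.32 in MA and 5.29 in MSC, above that median but under 8.31, and rose by 0.44 in DED against MSC (SE 0.17, limma adjusted p = 0.0479). LCN2, lipocalin 2, averaged 5.36 in DED, 5.12 in MA and 5.17 in MSC, and SERPINA3, antichymotrypsin, 7.82 in DED, 7.88 in MA and 6.60 in MSC. SERPINA3 rose by 1.28 in MA against MSC (limma adjusted p = 3.52e-06), and exceeded 8.31 only on DED array 1 (8.49).

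Markers of the hepatocyte stayed low: none of 7 measured hepatocyte markers had a group mean above 8.31, and their mean ran from 5.07 to 5.42 in DED, from 5.17 to 5.32 in MA and from 4.90 to 5.12 in MSC. In DED against MA, where 12.9% of all genes rose and 13.0% fell, 0 of 7 measured epithelial and breast carcinoma markers passed. Their mean ran from 5.86 to 5.98 in DED, from 5.73 to 5.85 in MA and from 5.75 to 5.996 in MSC, and the means of EPCAM, CDH1, KRT18 and ESRP1 lay under the negative control median in every group. KRT8 was above 8.31 on all arrays, with means of 9.16 in DED, 8.99 in MA and 8.94 in MSC. KRT7 averaged 7.39 in DED, 7.23 in MA and 7.44 in MSC, and KRT19 6.77 in DED, 6.66 in MA and 6.78 in MSC.

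Proteins that fall in the acute phase were covered by 11 of 12 listed genes. Of the 11, 1 rose and 2 fell in DED against MA (median -0.05), near the 12.9% and 13.0% of all genes. In MA against MSC 3 rose and 0 fell (median 0.17), beside 15.4% and 17.6% of all genes, and in DED against MSC 4 rose and 0 fell (median 0.12), beside 17.1% and 16.4%. RBP4, the retinol carrier, averaged 9.64 ± 0.47 in DED, 13.80 ± 0.17 in MA and 5.92 ± 0.60 in MSC (SD, n = 5 each), and fell by 4.16 in DED against MA (SE 0.24, limma adjusted p = 8.96e-11). TF, transferrin, fell by 1.06 in DED against MA (limma adjusted p = 0.000111), with all group means under 8.31, and ALB, albumin, averaged 5.34 in DED, 5.44 in MA and 5.56 in MSC. IGF1 rose by 0.70 in DED against MA (SE 0.22, limma adjusted p = 0.0207) and by 2.79 in MA against MSC.

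Within DED the 4 members with signals above 8.31 on average, SAA1, HP, LBP and PTX3, were all lowest in array 3, and HP, LBP and PTX3 were highest in array 1. LBP was above 8.31 in arrays 1 and 2 alone. Its average passed 8.31 through the arrays where it was high, so its place in these counts is partly set by array 1. Among the 6284 genes with a DED mean above 8.31, 24.8% were lowest in array 3 and 20.2% were highest in array 1, while 36.8% were highest in array 3 and 36.1% lowest in array 1. Array 3 lay below the DED mean by 0.55 for SAA1 (15.80), 0.92 for HP (9.25), 0.95 for LBP (7.45) and 0.33 for PTX3 (15.95). IL1R1 was also lowest in array 3, by 1.04, whereas NFKBIZ was there at its DED mean of 13.16. The adipocyte marker mean was 11.25 in DED array 1, 10.02 in array 3 and 9.96 to 10.29 in the other 3 arrays. Array 1 was thus high in these markers as well. ADIPOQ (11.24), FABP4 (13.27), CIDEC (12.25), LPL (7.28) and CFD (9.52) were lowest in array 3. LEP (8.83) and PPARG (9.03) were highest there, and PLIN1 was lowest in array 5. Over the 5 DED arrays the Pearson correlation of ADIPOQ was 0.976 with LBP, 0.832 with HP, 0.631 with PTX3 and 0.553 with SAA1. These coefficients were computed for no other adipocyte marker. LEP, highest in array 3 where the 4 members were lowest, ran from 6.69 to 7.36 in the other DED arrays. The part of the adipocyte markers in the spread of the acute phase genes was not tested. Without DED arrays 1 and 3 PTX3 and HP still passed in DED against MA, PTX3 at 1.29 (limma adjusted p = 0.00208) and HP at 1.25 (limma adjusted p = 0.000218), and SAA1 was 3.75 above MA.

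**Figure D4:**
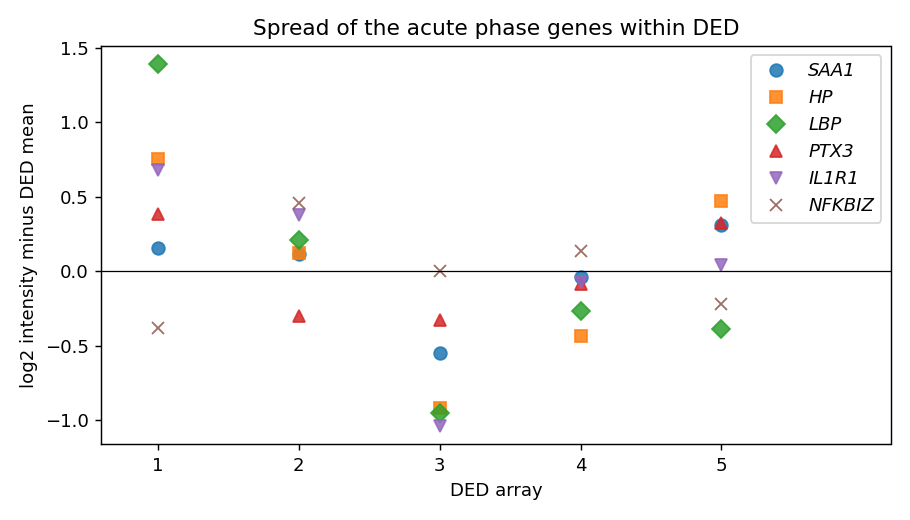
Deviation of each DED array from the DED mean (log2 intensity) for SAA1, HP, LBP, PTX3, IL1R1 and NFKBIZ. The 4 acute phase genes and IL1R1 have their lowest value in array 3, and HP, LBP, PTX3 and IL1R1 have their highest in array 1.

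The genes whose levels followed SAA1 most closely were searched among the 7013 genes with at least 1 group mean above 8.31. By Pearson correlation over the 15 arrays these were NRCAM (0.995), CSF1 (0.993), VGLL3 (0.993), FMO1 (0.992) and ADARB1 (0.991). The arrays fall into 3 groups, so these coefficients describe the order and spacing of the group levels and are given without a test. NRCAM, a neuronal cell adhesion molecule, averaged 16.00 in DED, 14.13 in MA and 8.98 in MSC, and CSF1, the macrophage growth factor, 16.72 in DED, 15.54 in MA and 13.18 in MSC. Against SAA1 the other members gave 0.979 (PTX3), 0.949 (HP), 0.927 (LBP), 0.646 (CP), 0.564 (ORM1) and 0.479 (ORM2) over the same arrays. After group means were taken away the values were 0.116 (PTX3), 0.09 (HP), 0.511 (LBP), -0.157 (CP), -0.05 (ORM1) and 0.264 (ORM2). SAA1 varied most within MSC (SD 0.54), where it lay at background, against 0.33 in DED and 0.18 in MA. Over the 5 DED arrays alone the values were 0.692 (PTX3), 0.894 (HP), 0.565 (LBP), 0.617 (CP), 0.474 (ORM1) and 0.054 (ORM2). They rest on 5 arrays and were not tested.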

How the data were processed

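The authors deposited log2 intensities for 24351 probe sets on each of 15 arrays. Per the submitters' processing notes these are RMA values and the software named is Transcriptome Analysis Console, with no version. Because RMA brings the arrays to a common distribution, a change common to most genes would not be visible. Gene names came from the platform annotation (17709 named probe sets, all matched to the RefSeq gene table by Entrez identifier), and the probe set with the highest mean was kept for 20 genes with several, which left 17687 genes. No filter on low signals was used.

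One mean per group was fitted to every gene over all 15 arrays by limma 3.58.1 (functions lmFit and eBayes, R 4.3.3), two-sided, with Benjamini-Hochberg adjustment over all genes and a threshold of 0.05. The fit was tested on simulated data. Values are log2 intensities, errors are SD over 5 arrays or the SE of the fit, and the number of arrays limits the precision. The genes, lists and alternatives were chosen with earlier results of these data known. Named were all members and, per list and comparison, up to 2 of the largest rises and falls past the threshold, with 16 genes given whatever their test. HPR was added because of its likeness to HP, and genes named beyond this were chosen after their values were seen. Alternatives were quantile or median normalization, dim genes left out, probe sets singly, weights per array, a robust fit with a mean-variance trend, only 2 groups in a fit, the replicate block, and each array left out. Leaving out DED arrays 1 and 3 together was added after seeing the data. Plots used matplotlib 3.10.9 under Python 3.11.15.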

Additional observations from a re-analysis of the deposited data

Results flagged for a closer look

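For the genes named in the text, 234 groups of 5 arrays had their most extreme array set against the other 4, and 22 stood apart by more than Dixon's 95% critical value, where chance flags about 1 in 20 independent groups. The groups share the same arrays, and some genes were named after their values were seen. The 22 can therefore not be weighed against that rate. None of the 22 was an acute phase member. Among DED arrays SERPING1 was at 11.75 in array 3 (13.36 to 13.98 in the others), CIAO2A at 11.52 in array 3 (12.01 to 12.12), IL1RAP at 8.43 in array 1 (8.78 to 8.84), ALB at 5.80 in array 1 (5.16 to 5.29) and LCN2 at 5.70 in array 4 (5.23 to 5.31). THY1 was at 13.39 in DED array 1 (12.54 to 12.78), PDGFRA at 15.79 in array 3 (16.38 to 16.61) and ENG at 12.07 in array 5 (12.39 to 12.52). Among MA arrays NRCAM was at 13.86 in array 3 (14.14 to 14.25), ADARB1 at 10.11 in array 1 (10.32 to 10.40), PDGFRA at 16.32 in array 4 (15.91 to 16.01) and MMP3 at 6.72 in array 1 (6.23 to 6.30). Among MSC arrays C3 was at 9.89 in array 2 (11.62 to 12.28), SERPING1 at 10.15 in array 2 (10.85 to 11.05), CD163 at 6.69 in array 3 (5.99 to 6.15) and CEBPD at 3.96 in array 4 (4.40 to 4.55). MSC array 2 also stood apart for IL6ST at 13.30 (13.64 to 13.70), C1S at 13.81 (14.17 to 14.27), NT5E at 13.64 (13.95 to 14.03) and ESRP1 at 4.36 (3.98 to 4.08). FPR2 was at 5.87 in MSC array 1 (5.42 to 5.53) and SERPINA1 at 4.23 in MSC array 3 (3.94 to 4.02).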

How the results depend on the processing

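The rises of PTX3 and HP in all 3 comparisons, and of LBP in MA against MSC and DED against MSC, kept direction and threshold under every alternative run, and SAA1 ran from 3.54 to 3.76 in DED against MA and from 7.57 to 7.90 in MA against MSC. Leaving out dim genes lowered the members called in MA against MSC to 3, because ORM1, ORM2 and CP were then not tested. The ORM2 difference in DED against MA changed sign with array weights (-0.070), without DED arrays 1 and 3 (-0.14) and over single arrays left out (-0.085 to 0.13), and that of CP without MA array 4 (0.021; range -0.17 to 0.021). With single arrays left out the members called numbered 2 to 3 in DED against MA, 5 in MA against MSC and 3 to 5 in DED against MSC. Leaving out DED arrays 1 and 3 left 3 members called in DED against MSC. The replicate numbers did not pair the arrays (correlations of deviations from -0.11 to 0.087, own number best in 1, 2 and 0 of 10 arrays per comparison), and with the replicate block 2, 5 and 4 members were called in DED against MA, MA against MSC and DED against MSC.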

Other observations

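Other acute phase genes shared the low values of DED array 3. Of the 8 listed positive acute phase genes outside the family with a DED mean above 8.31, 7 were lowest in that array, namely A2M, C3, C4A, CFB, C1R, C1S and SERPING1, and the exception was FTL, the ferritin light chain. Of all 6284 genes above 8.31 in DED, 24.75% were lowest and 36.76% highest in that array. Low values there were thus not confined to acute phase proteins: TLR4 (12.36), STAT3 (13.94) and PDGFRA (15.79) were also lowest, while FGF2 (12.74) was highest. CFB, complement factor B, was at 7.62 in DED array 3, where the other 4 ran from 8.72 to 9.53, and C1R, a complement protease, at 12.61 there and at 13.37 to 13.82 in the others. The pattern was seen after the values of the members were known and was not tested.

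P2RX7, an ATP-gated channel that SAA1 has been described to act through, averaged 8.70 ± 0.72 in DED, 5.77 ± 0.24 in MA and 5.29 ± 0.20 in MSC (SD, n = 5 each), and rose by 2.93 in DED against MA (SE 0.24, limma adjusted p = 1.35e-08). FGF2, a growth factor that PTX3 binds, averaged 11.25 ± 0.93 in DED, 9.37 ± 0.29 in MA and 12.06 ± 0.16 in MSC (SD, n = 5 each), and rose by 1.87 in DED against MA (SE 0.30, limma adjusted p = 6.04e-05). After group means were taken away, the highest correlations with SAA1 over the 15 arrays were those of ANXA4 (r = 0.834), PEX11A (0.824), DISP1 (0.813), CIAO2A (0.807) and MMP3 (0.779). Nothing is read from this order, because SAA1 varied most within MSC (SD 0.54), where it lay at background. MMP3 entered the search through MSC alone (6.44 in DED, 6.37 in MA and 8.37 in MSC).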
